A study of Homo sapiens with 8 samples.

Results

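The ID genes and the feedback genes of bone morphogenetic protein (BMP) signalling were examined in Kyse510 cells, an established human esophageal squamous cell carcinoma line. The group is a named list of 10 genes, ID1, ID2, ID3, ID4, SMAD6, SMAD7, SMAD9, BAMBI, BMP2 and BMP4, out of 34164 genes listed in at least 1 of the deposited tables, and each of the 10 was found once in each table by its gene name. RNA from 8 libraries was sequenced, and each condition had 1 library. For the inhibitors, parental cells were given DMSO (vehicle), SP2509 (an inhibitor of the histone demethylase LSD1), UNC0642 (an inhibitor of the histone methyltransferase G9a), or SP2509 together with UNC0642, each for 2 days. The series text gives 7 µM for each single inhibitor and no separate dose for the combination. In the genetic arm, cells carried a doxycycline (Dox)-inducible lentiviral hairpin against LSD1 (shLSD1) or G9a (shG9a), were kept in puromycin for 14 days to obtain stable cells, and were then left untreated or given Dox for 2 days. The series text speaks of stable clones, and whether each line was 1 clone or a pool is not given in the sources used here. No line with a nonsilencing hairpin was analysed here, so the effect of Dox itself and that of the hairpin cannot be told apart. The genes were chosen by their FPKM levels in these 8 libraries and the differences of each treated library from its own control, so the values below are a description and carry no test.

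BMP ligands bind paired receptor kinases, which phosphorylate SMAD1, SMAD5 and SMAD9, and these enter the nucleus with SMAD4 to activate target genes. ID1, ID2, ID3 and ID4 are among the best known of these targets. Their products are helix-loop-helix proteins without a DNA-binding region, which pair with E proteins such as TCF3 and TCF12 and keep them from DNA, and they are linked with proliferation and with a delay of differentiation in epithelia. SMAD6, SMAD7 and BAMBI are induced by the same signalling or by TGF-β and dampen it, SMAD6 and SMAD7 inside the cell and BAMBI as a receptor-like protein that lacks a kinase. BMP2 and BMP4 are secreted ligands.

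Sequence upstream of the start site is shown for the 4 ID genes, for SMAD6 and for BAMBI. The SMAD6 value had the sign of the ID1 value in all 5 comparisons, although with UNC0642 neither was called. SMAD7, SMAD9 and BMP4 also had promoters, which are not shown. Promoters were matched by symbol in RefSeq (GRCh38.p14) for 9 of the 10 genes, BMP2 being the exception. Each line gives the 250 bases before the start annotated in RefSeq, 5′ to 3′ on the strand of the gene. These starts differ from the gene models behind the FPKM values. The ID2 and ID3 windows lie within the gene ranges given below, the BAMBI window overlaps its range, and those of ID1 and SMAD6 reach into theirs by a few bases. Capitals mark GGCGCC, a GC-rich element read by BMP-activated SMADs, and GTCT on either strand (AGAC on the strand shown), the core SMAD element.
ID1 (chr20:31605039-31605288, plus strand): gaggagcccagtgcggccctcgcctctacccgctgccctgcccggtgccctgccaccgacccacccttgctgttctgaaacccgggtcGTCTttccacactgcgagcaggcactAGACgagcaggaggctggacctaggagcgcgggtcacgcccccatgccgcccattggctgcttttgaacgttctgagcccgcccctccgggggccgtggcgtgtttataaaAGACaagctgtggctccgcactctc
ID2 (chr2:8681806-8682055, plus strand): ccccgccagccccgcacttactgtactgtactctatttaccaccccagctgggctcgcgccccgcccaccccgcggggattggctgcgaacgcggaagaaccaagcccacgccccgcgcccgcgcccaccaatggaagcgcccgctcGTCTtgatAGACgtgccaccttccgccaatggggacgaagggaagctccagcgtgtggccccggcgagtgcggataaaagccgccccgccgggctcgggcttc
ID3 (chr1:23559502-23559751, minus strand): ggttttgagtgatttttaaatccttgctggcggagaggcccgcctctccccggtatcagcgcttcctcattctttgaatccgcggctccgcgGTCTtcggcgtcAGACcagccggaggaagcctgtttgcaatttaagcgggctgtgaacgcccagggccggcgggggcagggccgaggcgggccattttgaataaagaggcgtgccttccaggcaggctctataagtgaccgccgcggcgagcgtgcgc
ID4 (chr6:19837120-19837369, plus strand): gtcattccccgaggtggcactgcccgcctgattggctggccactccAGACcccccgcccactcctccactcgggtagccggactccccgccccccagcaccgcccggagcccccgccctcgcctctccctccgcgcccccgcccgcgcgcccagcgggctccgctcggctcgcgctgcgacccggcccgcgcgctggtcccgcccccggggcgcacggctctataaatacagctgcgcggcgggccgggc
SMAD6 (chr15:66701986-66702235, plus strand): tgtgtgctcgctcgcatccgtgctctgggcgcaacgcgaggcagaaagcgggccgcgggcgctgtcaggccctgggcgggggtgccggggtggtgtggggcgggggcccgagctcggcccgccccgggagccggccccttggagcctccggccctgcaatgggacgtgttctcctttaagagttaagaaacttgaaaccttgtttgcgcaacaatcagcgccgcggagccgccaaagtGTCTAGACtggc
BAMBI (chr10:28677271-28677520, plus strand): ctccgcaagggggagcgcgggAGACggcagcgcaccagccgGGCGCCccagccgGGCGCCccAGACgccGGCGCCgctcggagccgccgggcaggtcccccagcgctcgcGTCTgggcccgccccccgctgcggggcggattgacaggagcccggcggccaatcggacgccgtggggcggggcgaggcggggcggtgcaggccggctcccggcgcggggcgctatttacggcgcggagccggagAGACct
GTCT was found 3 times before ID1, 2 times each before ID2, ID3 and SMAD6, 1 time before ID4 and 4 times before BAMBI. It is a common motif, present in 77.5% of 35116 promoter windows of this length. GGCGCC was found 3 times before BAMBI and in none of the other 5 windows shown, against 16.4% of all windows. Among the windows not shown, one of BMP4 held GGCGCC 1 time and one of SMAD7 held GTCT 5 times. In the SMAD6 window the GTCT and its complement stand next to each other, shortly before the start. These matches are a description of the letters, and the windows do not reach more distant elements. The windows shown were rich in G and C, from 62.0% for ID3 to 81.2% for BAMBI, with a median of 58.0% over all windows. Those not shown ranged from 48.0% for one of SMAD7 to 78.4% for SMAD9.

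The values are FPKM, fragments scaled to gene length and to the number mapped in the library. Whole fragments could be estimated from them, with library totals of 15662035 to 17889466 fragments in the inhibitor table and 16540175 to 17754601 in the knockdown table. Exact Poisson 95% intervals computed from these fragments cover counting error only, since PCR reads without molecular identifiers are not independent molecules, and with 1 library per condition there is no replicate check of any difference. A change is the log2 of (FPKM + 1) in the treated library over (FPKM + 1) in its control, which understates the change of low genes. A gene was called higher or lower when this fold was at least 1.3, the threshold of the study, with at least 1 FPKM in at least 1 of the 2 libraries, and a fold of 2 was used as a stricter rule. With Dox the hairpin targets were lower, KDM1A (LSD1) from 26.0 to 6.29 FPKM (0.242 of the uninduced level). EHMT2 (G9a) went from 7.85 to 4.76 FPKM, and so kept 0.607 of its uninduced level. A lower EHMT2 was not limited to the hairpin, since it had 11.1 FPKM with vehicle and 5.38 with both inhibitors (0.484-fold). KDM1A was higher with Dox in the shG9a line (26.4 to 35.8 FPKM). Of 8 squamous epithelial markers, 6 to 8 had at least 1 FPKM in each library, among them KRT5 and TP63, and PKP1 was below 1 FPKM except in induced shG9a cells (1.13 FPKM). Of the markers of other cells, COL1A1 was the sole fibroblast gene of 4 with at least 1 FPKM, CDH5 reached 14.0 FPKM among 3 endothelial genes while PECAM1 was at most 0.569 and VWF at most 1.42, and no blood marker passed 0.0522 FPKM.

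ID1 and ID3 made up most of the ID transcripts in every library. With vehicle, the 4 ID genes summed to 584 FPKM, of which ID1 made up 58.9% and ID3 34.9%. The sum was 607 FPKM with SP2509, 466 with UNC0642 and 75.7 with both inhibitors. In the genetic arm it was 658 FPKM in uninduced and 881 in induced shLSD1 cells, and 725 FPKM in uninduced and 1349 in induced shG9a cells. The total was thus lowest by far in the library given both inhibitors, and highest in the shG9a line with Dox.

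**Figure D1:**
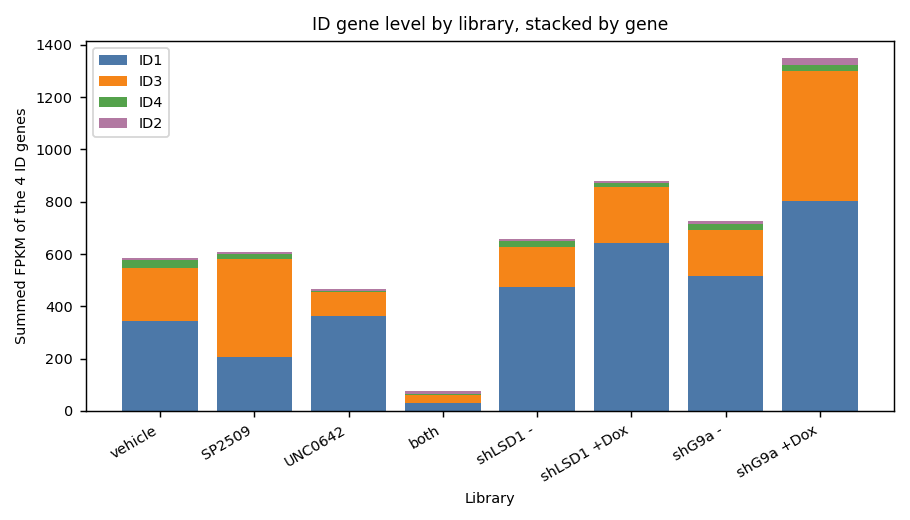
Summed FPKM of the 4 ID genes (y axis, linear from 0) in each of the 8 libraries (x axis), stacked by gene, where a minus sign stands for a line without Dox. The bar for both inhibitors reaches 75.7 FPKM and the bar for shG9a with Dox 1349 FPKM.

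ID1 (ENSG00000125968, chromosome 20 from 31605283 to 31606515, plus strand) had 344 FPKM in vehicle-treated cells, 207 after SP2509, 364 after UNC0642 and 29.7 after both inhibitors. Neither inhibitor alone came near the level seen with the pair. The combination library was 11.6-fold lower than vehicle (exact 95% counting interval 10.7 to 12.6, from 618 and 6650 fragments), a change of -3.49 on the log2 scale, and 0.0144% of the 13907 genes tested had a lower value. SP2509 alone gave a change of -0.73 and UNC0642 alone a change of 0.08. With the hairpins, ID1 had 475 FPKM without and 642 with Dox in the shLSD1 line, and 515 without and 803 with Dox in the shG9a line. Squamous markers also differed in the library given both inhibitors, in opposite directions. Of 7 tested, 3 were past a fold of 2 upward (all genes 13.0%) and 4 downward (9.57%). KRT6A had 16.1 FPKM against 0.676 with vehicle, KRT14 10.1 against 1.93 and SFN 690 against 179. KRT6A passed the minimum of 1 FPKM only through the treated library. KRT5 had 163 FPKM against 427, TP63 18.3 against 79.1, DSG3 9.63 against 28.6 and DSC3 23.6 against 49.1, and the 8 markers summed to 931 against 766 FPKM. Their part in the ID1 value was not tested, and in bulk RNA fewer cells of a kind and less RNA per cell cannot be told apart. The Dox values of ID1 are changes of 0.43 and 0.64, both called higher at a fold of 1.3. Once the ratios were centred on the median of all genes, the first of these was 0.31 and was no longer called.

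ID3 (ENSG00000117318, chromosome 1 from 23557918 to 23559794, minus strand) was called higher with SP2509 and lower with UNC0642. It had 204 FPKM in vehicle-treated cells, 376 after SP2509, 91.8 after UNC0642 and 30.6 after both. SP2509 alone was 1.84-fold higher than vehicle (counting interval 1.78 to 1.90), UNC0642 alone was 2.22-fold lower (2.13 to 2.32), and both together 6.67-fold lower (6.22 to 7.16). The library with both inhibitors therefore lay below either single inhibitor, with changes of -3.58 against SP2509 and -1.56 against UNC0642. Per length, the ratio of ID1 to ID3 was 1.69 in the vehicle library, 0.552 after SP2509, 3.97 after UNC0642 and 0.972 after both. With the hairpins, ID3 had 153 FPKM without and 213 with Dox in the shLSD1 line, and 178 without and 498 with Dox in the shG9a line. The second of these was a change of 1.48 (2.80-fold, counting interval 2.72 to 2.89), past a fold of 2. The first, a change of 0.47, was 0.35 after centring and not called.

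ID4 (ENSG00000172201, chromosome 6 from 19837386 to 19840684, plus strand) was lowest in the libraries that contained UNC0642. It had 28.5 FPKM in vehicle-treated cells, 18.7 after SP2509, 3.22 after UNC0642 and 3.26 after both. The last 2 values rested on 135 and 129 fragments and their counting intervals overlap, so adding SP2509 to UNC0642 left no detectable difference (UNC0642 over both, 0.987-fold, interval 0.770 to 1.27). UNC0642 alone was 8.84-fold lower than vehicle (interval 7.38 to 10.7). The G9a hairpin showed no such difference, with 23.5 FPKM without and 23.8 with Dox (1.01-fold, interval 0.925 to 1.11). In the shLSD1 line ID4 had 19.9 FPKM without and 16.6 with Dox. An antisense gene, AL022068.1, overlaps ID4 and had at most 0.327 FPKM in any library, and the strand setting of the counting is not given in the sources used here.

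ID2 (ENSG00000115738, chromosome 2 from 8678845 to 8684453, plus strand) went against the other ID genes with both inhibitors. It had 7.73 FPKM in vehicle-treated cells, 5.83 after SP2509, 6.16 after UNC0642 and 12.2 after both, and the combination was 1.58-fold higher than vehicle (interval 1.35 to 1.84). Against vehicle, SP2509 alone gave 0.754-fold (interval 0.630 to 0.904) and UNC0642 alone 0.797-fold (0.667 to 0.952). Both were thus lower beyond counting error, and neither was called. The level intervals of UNC0642 and SP2509 overlap. Among the hairpin libraries, 3 were level, at 9.25 FPKM in uninduced shLSD1 cells, 9.22 in induced shLSD1 cells and 9.27 in uninduced shG9a cells. The shG9a library with Dox stood apart at 24.2 FPKM, 2.61-fold higher than without (interval 2.31 to 2.97). ID2 made up 1.32% of the ID sum with vehicle and 16.1% with both inhibitors. Its antisense neighbour ID2-AS1 had at most 0.244 FPKM.

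SMAD6 (ENSG00000137834, chromosome 15 from 66702228 to 66782848, plus strand), the inhibitory SMAD that acts mainly on BMP receptors, had 4.49 FPKM in vehicle-treated cells, 2.31 after SP2509, 4.97 after UNC0642 and 0.719 after both inhibitors. The intervals of vehicle and UNC0642 overlap, and the library with both lay 6.24-fold below vehicle (interval 5.06 to 7.76, from 104 and 602 fragments). With the hairpins it had 4.06 FPKM without and 6.22 with Dox in the shLSD1 line, and 3.82 without and 9.32 with Dox in the shG9a line. The 2 uninduced values overlap in their intervals, and both induced values lie above them. The changes of SMAD6 in the 5 comparisons were -0.73, 0.12, -1.67, 0.51 and 1.10, each with the sign of the ID1 value. With UNC0642 neither gene was called, and the sign of SMAD6 there was within counting error (1.11-fold, interval 0.995 to 1.24).

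SMAD7 (ENSG00000101665, chromosome 18), the inhibitory SMAD of both the TGF-β and the BMP branch, moved less. It had 2.54 FPKM in vehicle-treated cells, 2.57 after SP2509, 3.69 after UNC0642 and 3.83 after both, so that the libraries with UNC0642 were the higher ones and the other 2 did not differ beyond their intervals. In the genetic arm it had 3.48 FPKM without and 2.01 with Dox in the shLSD1 line, a change of -0.57, and 3.24 without and 3.17 with Dox in the shG9a line. The gene lies on the minus strand, and its model starts at 48950711 in the inhibitor table and at 48952052 in the knockdown table. Both models end at 48919853. The estimated lengths were 3692 and 5033 bases, so the FPKM values of SMAD7 are not comparable between the tables.

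SMAD9 (ENSG00000120693, chromosome 13 from 36844831 to 36920765, minus strand), a receptor-activated SMAD that is itself a BMP target, was low throughout. It had 0.915 FPKM in vehicle-treated cells, 2.68 after SP2509, 0.801 after UNC0642 and 0.321 after both, from 82, 273, 82 and 31 fragments. The SP2509 library was the high one, 2.93-fold above vehicle (interval 2.28 to 3.80), and it was also the value through which the gene passed the minimum of 1 FPKM. With the hairpins SMAD9 had 2.06 FPKM without and 1.01 with Dox in the shLSD1 line, and 1.87 without and 1.18 with Dox in the shG9a line, so that both induced libraries were lower.

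BAMBI (ENSG00000095739, chromosome 10 from 28677342 to 28682939, plus strand) had 17.5 FPKM in vehicle-treated cells, 10.8 after SP2509, 6.47 after UNC0642 and 14.5 after both inhibitors. Each single inhibitor thus gave a lower level than the pair did, and the combination library was 2.24-fold above UNC0642 alone (interval 1.94 to 2.60). In the genetic arm it had 10.3 FPKM without and 11.4 with Dox in the shLSD1 line, and 13.6 without and 9.33 with Dox in the shG9a line, a change of -0.49. Against the mean of both uninduced libraries the latter was -0.33 and was not called.

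BMP2 (ENSG00000125845, chromosome 20 from 6767664 to 6780280, plus strand) ran opposite to ID1 with SP2509 and with both inhibitors, and in both hairpin lines. It had 5.53 FPKM in vehicle-treated cells, 30.2 after SP2509, 12.3 after UNC0642 and 33.5 after both. All 3 treated libraries were at least 2-fold above vehicle, by 5.46-fold with SP2509 (interval 4.85 to 6.18), 2.23-fold with UNC0642 (1.95 to 2.54) and 6.06-fold with both (5.37 to 6.85). With the hairpins it had 8.87 FPKM without and 5.85 with Dox in the shLSD1 line, and 8.81 without and 4.59 with Dox in the shG9a line, which are changes of -0.53 and -0.81. The levels of the 2 uninduced lines lay within each other's intervals.

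BMP4 (ENSG00000125378, chromosome 14 from 53949736 to 53958761, minus strand) stayed below 1 FPKM in all 8 libraries and was not called in any comparison. It had 0.373 FPKM in vehicle-treated cells, 0.273 after SP2509, 0.345 after UNC0642 and 0.865 after both, from 18, 15, 19 and 45 fragments. The combination was 2.32-fold above vehicle, with a wide counting interval of 1.32 to 4.26. The 4 hairpin libraries lay between 0.656 and 0.895 FPKM and their intervals overlap.

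**Figure D2:**
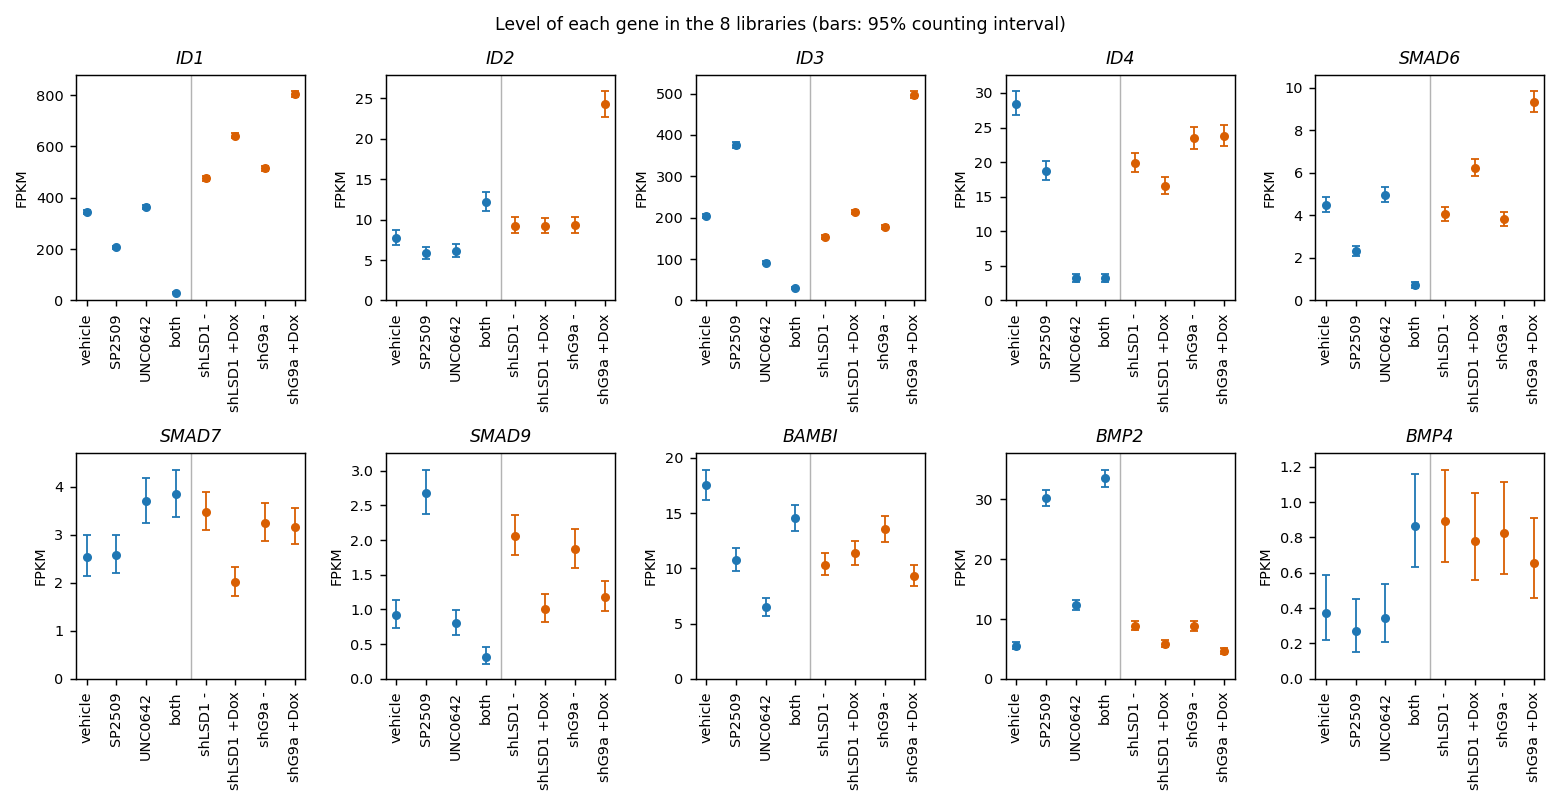
FPKM (y axes, linear from 0) of each of the 10 genes in the 8 libraries (x axes), with exact Poisson 95% counting intervals as bars. Blue points are the inhibitor table and orange points the knockdown table, which were normalised separately. ID1, ID3 and SMAD6 are lowest with both inhibitors (29.7, 30.6 and 0.719 FPKM) and highest in the shG9a line with Dox.

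The calls were counted for each comparison beside their share over all genes. With SP2509, 7 of the 9 genes tested were called, where 60.9% of all genes tested were, with 3 higher (all genes 21.0%) and 4 lower (39.9%). BMP2 alone passed a fold of 2 there, upward, against 21.3% of all genes (8.25% higher and 13.0% lower). With UNC0642, 5 of 8 were called (all genes 35.1%), of which 2 were higher (18.2%) and 3 lower (16.9%). A fold of 2 was passed by 4, namely BMP2 upward (4.79%) and ID3, ID4 and BAMBI downward (3.12%), where 7.91% passed in either direction. With both inhibitors, 7 of 8 were called (all genes 63.2%), of which 3 were higher (31.4%) and 4 lower (31.7%). Here 5 passed a fold of 2 (22.6%), BMP2 upward (13.0%) and ID1, ID3, ID4 and SMAD6 downward (9.57%).

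In the shLSD1 line, 6 of 9 were called (all genes 37.1%), with ID1, ID3 and SMAD6 higher (24.8%) and SMAD7, SMAD9 and BMP2 lower (12.3%). After either centring, or against the mean of the uninduced libraries, 4 were called, with SMAD6 alone higher and the same 3 lower. None of the 9 passed a fold of 2, against 6.63% of all genes (3.36% higher and 3.27% lower). In the shG9a line, 7 of 9 were called (all genes 50.5%), with all but ID4 of the ID genes and SMAD6 higher (32.9%) and SMAD9, BAMBI and BMP2 lower (17.6%). ID2, ID3 and SMAD6 passed a fold of 2 upward (5.13%) and 0 downward (6.02%), where 11.2% passed in either direction. After centring on the median or the trimmed mean, SMAD6 no longer passed (0.94 and 0.95). Nothing is read from these shares, since the genes were chosen with these comparisons known. With SP2509 the median of all genes tested was -0.21, and in the 2 hairpin lines it was 0.13 and 0.18. Of all calls, 66.8% were higher in the shLSD1 line and 65.2% in the shG9a line, and after centring on the median these were 49.1% and 48.5%.

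**Figure D3:**
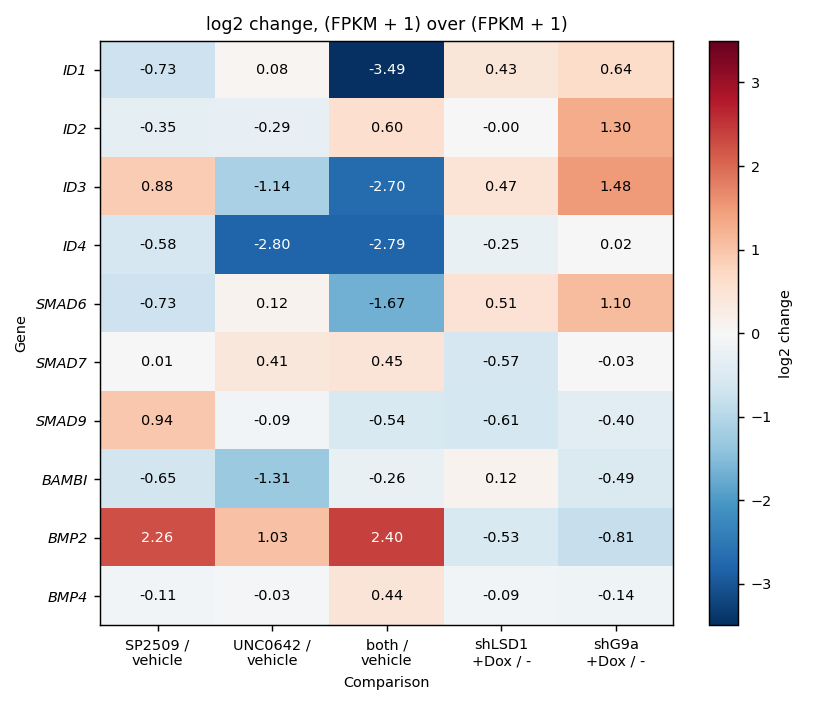
Heatmap of the log2 change of (FPKM + 1) for the 10 genes (rows) in the 5 comparisons of a treated library with its own control (columns), with the value in each cell. The lowest cell is ID1 with both inhibitors (-3.49) and the highest is BMP2 with both inhibitors (2.40).

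The 2 uninduced lines are the one pair of untreated libraries within a table. Between them, 0 of the 9 genes tested passed a fold of 1.3, against 7.55% of 12449 genes, and the widest difference was that of BAMBI (0.36, higher in the shG9a line). ID1 differed by 0.11, ID3 by 0.21, SMAD6 by -0.07 and BMP2 by -0.01. The induced changes of ID3 and SMAD6 in the shG9a line, 1.48 and 1.10, were thus wider than the gap between these 2 libraries, while a single pair gives no estimate of the spread.

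The combination was set against the sum of the single changes on the log2 scale. The 3 changes share the vehicle library, so an error in vehicle enters all of them. ID1 lay -2.84 below the sum, ID3 -2.43 and SMAD6 -1.07. ID2 and BAMBI lay 1.24 and 1.71 above it, and BMP2 lay -0.88 below it, with both inhibitors (2.40) close to SP2509 alone (2.26). SMAD7 was 0.03 from the sum and ID4 0.59 above it. Of the 8 genes tested in all 3 comparisons, 3 were at or below -1 and 2 at or above 1. Over 12556 genes the corresponding shares were 7.46% and 16.1%, with a median of 0.20.

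**Figure D4:**
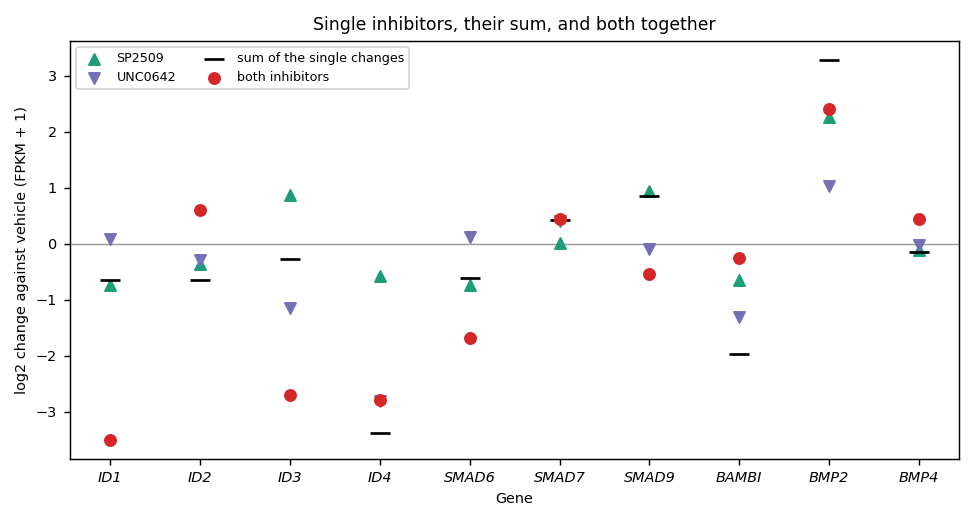
Log2 change against vehicle (y axis, FPKM + 1 scale) for SP2509, UNC0642, the sum of these 2 changes, and both inhibitors together, for each gene (x axis). For ID1 the point for both inhibitors (-3.49) lies far below the bar of the sum (-0.65), and for BAMBI it lies above it (-0.26 against -1.96).

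Genes with a pattern close to that of ID1 were listed by the root mean square difference of the 5 changes, over 11376 genes tested in every comparison. The nearest were CENPE (0.35), HMMR (0.49), SSH3 (0.51), EFEMP1 (0.57) and ASPM (0.57). CENPE, which encodes a mitotic kinesin, had 10.2 FPKM in vehicle-treated cells, 8.69 after SP2509, 8.87 after UNC0642 and 0.408 after both inhibitors. SMAD6 ranked 40 in this list, ID3 ranked 259 and ID4 ranked 2635, while BAMBI ranked 6333 and ID2, SMAD7 and BMP2 lay further down. With a Pearson correlation over the same 5 changes, 0 of these 5 genes were again among the nearest 5, so the names depend on the measure.

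Other genes of the pathway were taken from lists that do not contain the 10 genes. Among BMP receptors and coreceptors, which bind the ligand and start the signal, none of the 5 to 7 tested passed a fold of 2 in the 5 comparisons with a control, a number too small to set against the 6.63% to 22.6% of all genes that did, and the largest change was that of BMPR1A with both inhibitors (3.60 to 1.79 FPKM, -0.72). Of the 5 SMADs that carry the signal, SMAD1, which transmits BMP signals, had 5.02 FPKM in vehicle-treated cells, 2.10 after SP2509, 2.09 after UNC0642 and 1.05 after both. SMAD3, which transmits TGF-β signals, had 13.4 FPKM with vehicle and 26.9 with SP2509, 21.5 with UNC0642 and 25.3 with both, and went from 19.5 to 6.37 FPKM with Dox in the shG9a line. The list median with both inhibitors was -0.15, beside -0.02 for all genes tested.

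Of the 12 other BMP ligands, 3 to 4 were tested in each comparison. BMP5 had 5.75 FPKM in vehicle-treated cells, 2.50 after SP2509, 3.47 after UNC0642 and 0.645 after both, and was higher with Dox in both lines (2.21 to 3.69 and 2.17 to 5.30 FPKM). BMP6 had 0.689 FPKM with vehicle and 4.50 with both inhibitors, and so passed the minimum of 1 FPKM there only through the treated library. Among the secreted antagonists, 3 of 15 were tested and all 3 were called higher with SP2509 and with both inhibitors, including FSTL3, a follistatin-like antagonist of activins and BMPs, from 4.23 to 18.6 FPKM with both. Beside this, 21.0% and 31.4% of all genes were called higher in these comparisons. FST, another of the 3, had 0.903 FPKM with vehicle, 1.97 with SP2509 and 2.55 with both, and so passed the minimum of 1 FPKM only through the treated libraries. Of the 11 intracellular regulators, 4 were past a fold of 2 upward with both inhibitors (all genes 13.0%) and 1 downward (9.57%), led by TOB1, an antiproliferative SMAD partner (22.5 to 94.0 FPKM). Its relative TOB2 had 19.8 FPKM with vehicle and 46.0 with both, and LEMD3, an inner nuclear membrane protein that restrains SMADs, 7.68 and 18.4 FPKM. SKIL, a TGF-β-induced SMAD corepressor, had 11.0 FPKM with vehicle and 29.1 with SP2509.

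The E proteins that ID proteins bind were represented by TCF3 and TCF12, with TCF4 below 1 FPKM in all libraries. TCF12 had 8.56 FPKM in vehicle-treated cells, 7.80 after SP2509, 5.39 after UNC0642 and 2.11 after both. TCF3 had 26.3, 12.8, 19.2 and 17.9 FPKM, respectively. Both partners were called lower with UNC0642 and with both inhibitors, where 16.9% and 31.7% of all genes were lower.

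Other BMP target genes did not share 1 direction. Of 10 tested with both inhibitors, 6 were called higher (all genes 31.4%) and 4 lower (31.7%), with a list median of 0.66. At a fold of 2 these were 2 upward (13.0%) and 4 downward (9.57%). ATOH8, a helix-loop-helix gene downstream of BMP receptors, had 5.44 FPKM in vehicle-treated cells, 2.36 after SP2509, 1.06 after UNC0642 and 0.214 after both, and 8.01 without and 13.6 with Dox in the shLSD1 line. MSX1, a homeobox target, went the other way with both inhibitors, from 0.663 to 10.5 FPKM. It passed the minimum of 1 FPKM there only through the treated library. DLX3 had 12.8 FPKM with vehicle and 1.22 with SP2509, and JUNB 41.5 and 266 FPKM.

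The TGF-β response genes, a neighbouring branch that uses SMAD3, had opposite directions in the 2 arms. Of 11 tested, 10 were called higher (all genes 21.0%) and 1 lower (39.9%) with SP2509. With UNC0642 these were 7 (18.2%) and 1 (16.9%), and with both inhibitors 8 (31.4%) and 1 (31.7%). With Dox, 0 were higher and 7 lower in the shLSD1 line, and 1 was higher and 9 lower in the shG9a line, where 24.8% and 32.9% of all genes were higher and 12.3% and 17.6% lower. The list medians were 2.21, 1.07, 1.61, -0.96 and -1.58, beside medians of -0.21, -0.01, -0.02, 0.13 and 0.18 for all genes tested. CTGF, a matrix gene that YAP also controls, had 5.90 FPKM with vehicle and 277 with SP2509, and went from 90.3 to 0.741 FPKM in the shG9a line. CYR61, its close relative, had 8.89 FPKM with vehicle and 439 with SP2509. THBS1, a matrix glycoprotein, had 16.3 and 177 FPKM.

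**Figure D5:**
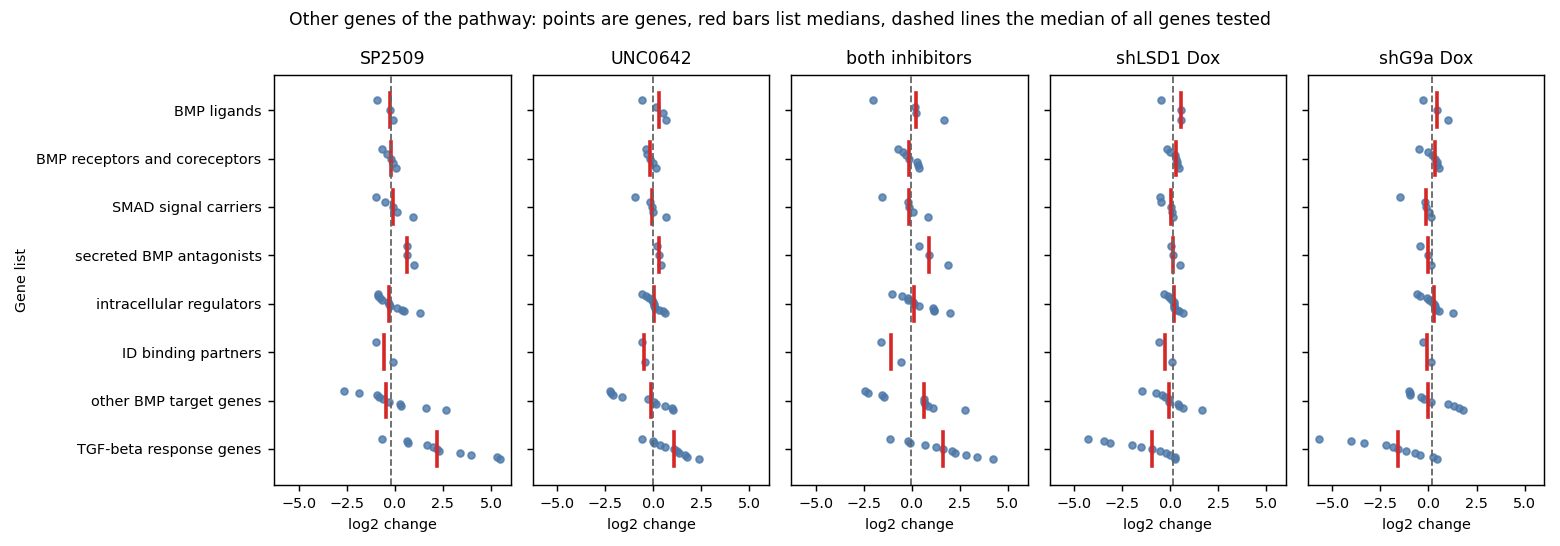
Log2 change (x axes, FPKM + 1 scale) of the tested genes of 8 further lists (y axis) in the 5 comparisons (panels), with points for genes, red bars for list medians and dashed lines for the median of all genes tested. The TGF-β response genes lie to the right with the inhibitors (medians 2.21, 1.07 and 1.61) and to the left with Dox (medians -0.96 and -1.58).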

How the data were processed

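RNA of 8 Kyse510 libraries was sequenced by the authors as paired-end reads of 150 bases. After reads of poor quality or with adapter had been discarded, the authors aligned what was left to GRCh38 (Ensembl release 87) and deposited FPKM values in 2 tables, one per arm, each normalised on its own. The aligner, the counting tool and the strand setting are not given in the sources used here. Groups were taken from the sample titles.

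From the FPKM values, library totals were estimated on genes with 1 exon (GENCODE release 44, same build), for which all values were whole fragments within 0.01. Fragments of other genes were then found as the length, no longer than the gene's span, at which all values of a table were whole within 0.02. Changes were computed with a pseudocount of 1 FPKM and a minimum of 1 FPKM in 1 of the 2 libraries, without replicates and therefore without tests. The study's p threshold could not be applied. Intervals are exact Poisson, or conditional binomial for ratios, at 95%. On simulated libraries 4 of 4 totals were recovered, and 197 of 200 genes changed 3-fold were called at a fold of 2. The same procedure called 138 of 12634 unchanged genes at a fold of 2. Of 300 genes sampled there, 285 had an estimated length within 0.5% of the length used. The simulated length itself guided the choice among candidate lengths, so this count does not measure accuracy on the real data. For the real genes the guide was the GENCODE exon length, which can differ from the estimate (ID3, 1496 and 1797 bases). Fragments and counting intervals rest on such estimated lengths. With 1 library per condition, the spread between cultures could not be measured. The simulated call counts are therefore no error rates for the real comparisons. Python 3.11.15, pandas 2.3.3, numpy 2.4.6 and scipy 1.17.1 were used.

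The genes, the lists and the rules were chosen with earlier results of these data known. Named genes were the 10 genes, the 5 nearest to ID1, the hairpin targets, and up to 4 genes per list past a fold of 2, by size. A gene that this rule names is not reported here. Cell type markers and BMPR1A, TCF3 and the other list genes below that fold are named to describe their lists, after their values were seen. Alternatives were a pseudocount of 0.1, no minimum or 5 FPKM, centring on the median or a trimmed mean (30% at each end) of the genes that reached 5 FPKM in each library compared, the mean of the uninduced libraries as control, protein-coding genes, and correlation in place of the root mean square difference.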

Additional observations from a re-analysis of the deposited data

Results flagged for a closer look

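Genes that were called in opposite directions by the inhibitor and by the hairpin of the same enzyme are listed here. With 1 library per condition, the difference between inhibitor and hairpin was not tested, and the 2 arms also differ in cells (parental or hairpin-carrying) and in table.

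For LSD1, ID1 had a log2 change of -0.73 with SP2509 and 0.43 with Dox in the shLSD1 line, and SMAD6 had -0.73 and 0.51. The reverse order was seen for SMAD9, with 0.94 and -0.61, and for BMP2, with 2.26 and -0.53. For G9a, ID3 had -1.14 with UNC0642 and 1.48 with Dox in the shG9a line, and BMP2 had 1.03 and -0.81. The Dox value of ID1 fell short of a fold of 1.3 once ratios were centred. No gene of the 10 was called in opposite directions by Dox in the 2 lines.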

How the results depend on the processing

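The limits are those of 1 library per condition, so that the intervals give counting error and no spread between cultures. No paired analysis was possible because each condition had 1 library and the labels carry no replicate numbers. No called change of the 10 genes turned direction under any of the alternatives run. With SP2509, 1 gene passed a fold of 2, and 2 did with a pseudocount of 0.1, with centring on the median and with the trimmed mean, the second being SMAD9 (1.45, 1.04 and 1.05). With Dox in the shLSD1 line, ID1 and ID3 were not called after centring on the median (0.31 and 0.35) or against the mean of the uninduced libraries (0.37 and 0.36). In the shG9a line SMAD6 was then below a fold of 2 after centring on the median (0.94), and BAMBI was not called against that mean (-0.33). ID4 in that line, not called, was 0.02 and became -0.13 on either centring.

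Over all genes, calls at a fold of 2 numbered 2837 with SP2509, 1047 with UNC0642, 860 in the shLSD1 line and 1459 in the shG9a line. With a pseudocount of 0.1 these were 4371, 1852, 1569 and 2554, and among protein-coding genes, which are fewer, 1685, 549, 496 and 972. With a minimum of 5 FPKM, which also tests fewer genes, they were 1544, 507, 476 and 890, and with both inhibitors 1768 in place of 3142. Calls at a fold of 1.3 were then 4450 in place of 8125 with SP2509, 2391 in place of 4652 with UNC0642, 5003 in place of 8783 with both, 2739 in place of 4818 in the shLSD1 line and 3842 in place of 6603 in the shG9a line. Of the calls at a fold of 2, 50.7% were higher in the shLSD1 line and 46.0% in the shG9a line, and after centring on the median 36.4% and 27.8%. With SP2509 the share was 38.8%, and 49.0% after centring on the trimmed mean.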
